A study of Gallus gallus with 6 samples.

Results

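Endothelin receptors, their ligands and converting enzymes, and the G protein, phospholipase C, protein kinase C, IP3 receptor and RGS genes that work below such receptors, were taken from the gene table by symbol. Of 40 symbols on the list, 38 had a row among the 25619 genes of the table. PLCB3 and ARRB1 had no row of that name, and 36 of the 38 reached the mean of 1 FPKM needed for a test, the exceptions being EDN3 and RGS4. FPKM counts sequenced fragments or reads per kilobase of gene model and per library size, so levels can be set side by side between genes of different length.

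The 6 RNA-seq libraries came from the basilar papilla, the auditory sensory epithelium of the chick (Gallus gallus), kept in culture within the cochlear duct. All ducts were taken at post-hatch day 1 and exposed for 48 h to streptomycin (SM), an antibiotic toxic to hair cells, so the controls carried the same injury. The epithelium was then freed from each duct with the protease thermolysin (500 µg/ml), in both groups alike. The titles give day 3 for every library. The 3 SM control libraries are marked in their titles only as ctrl. The 3 SM plus BQ788 libraries also received BQ788, a blocker of the type B endothelin receptor, while hair cells were being replaced. The sources used here give neither the dose of BQ788, nor the strain and sex of the chicks, nor the number of ducts per library. Whether the replicates are separate animals or cultures is not stated, and p-values therefore cover only the spread among these 6 libraries.

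Endothelins are short vasoactive peptides cut from larger precursors, the last step being made by the membrane proteases ECE1 and ECE2. They act on type A and type B receptors, which are coupled through the membrane to G proteins. The Gq class of G alpha subunits, GNAQ and GNA11, turns on phospholipase C beta, which releases IP3 and diacylglycerol. IP3 opens calcium channels of the endoplasmic reticulum, diacylglycerol and calcium activate protein kinase C, and calcium acting through calmodulin drives CaMKII and calcineurin, the phosphatase that sends NFAT factors to the nucleus. RGS proteins shorten the signal by speeding GTP hydrolysis on G alpha, and GRK kinases with arrestins switch off the receptor. Birds carry an added type B receptor gene, EDNRB2, known in chick and quail from pigment cell precursors and plumage colour.

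Recovered reads came to 15438305 to 17375656 per library. Markers of the labelled tissue were high, with the 8 supporting cell markers summing to 3687 to 4669 FPKM in the controls and 2874 to 4063 with BQ788. Of these, FGFR3 fell (-0.39, limma adjusted p = 0.0415), and TECTA was lower without overlap but did not pass (-0.62, limma adjusted p = 0.0591). JAG1 went the other way with overlap (0.42, limma adjusted p = 0.187, 0.0355 before adjustment). OTOA (0.17) and GJB6 (0.09) were also above 0, and TECTB, SOX2 and PROX1 below it, all with overlap and none passing. The 7 hair cell markers summed to 370 to 392 FPKM in the controls and 329 to 345 with BQ788, without overlap, and 0 of the 7 passed the test across all genes (limma, limma voom), with 5 under 0.05 before adjustment, where 22.7% of all genes tested were. Singly, MYO7A and POU4F3 were lower without overlap, and the other hair cell markers overlapped. ATOH1, the highest of them, differed by -0.07 and MYO6 by 0.03. Neurite and Schwann cell markers moved with the groups too, at 47.7 to 53.5 and 37.4 to 38.3 FPKM in sum, and 3 of the 4 tested fell, against 2.99% of all genes tested that passed. Their part in the results below was not tested.

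**Figure D1:**
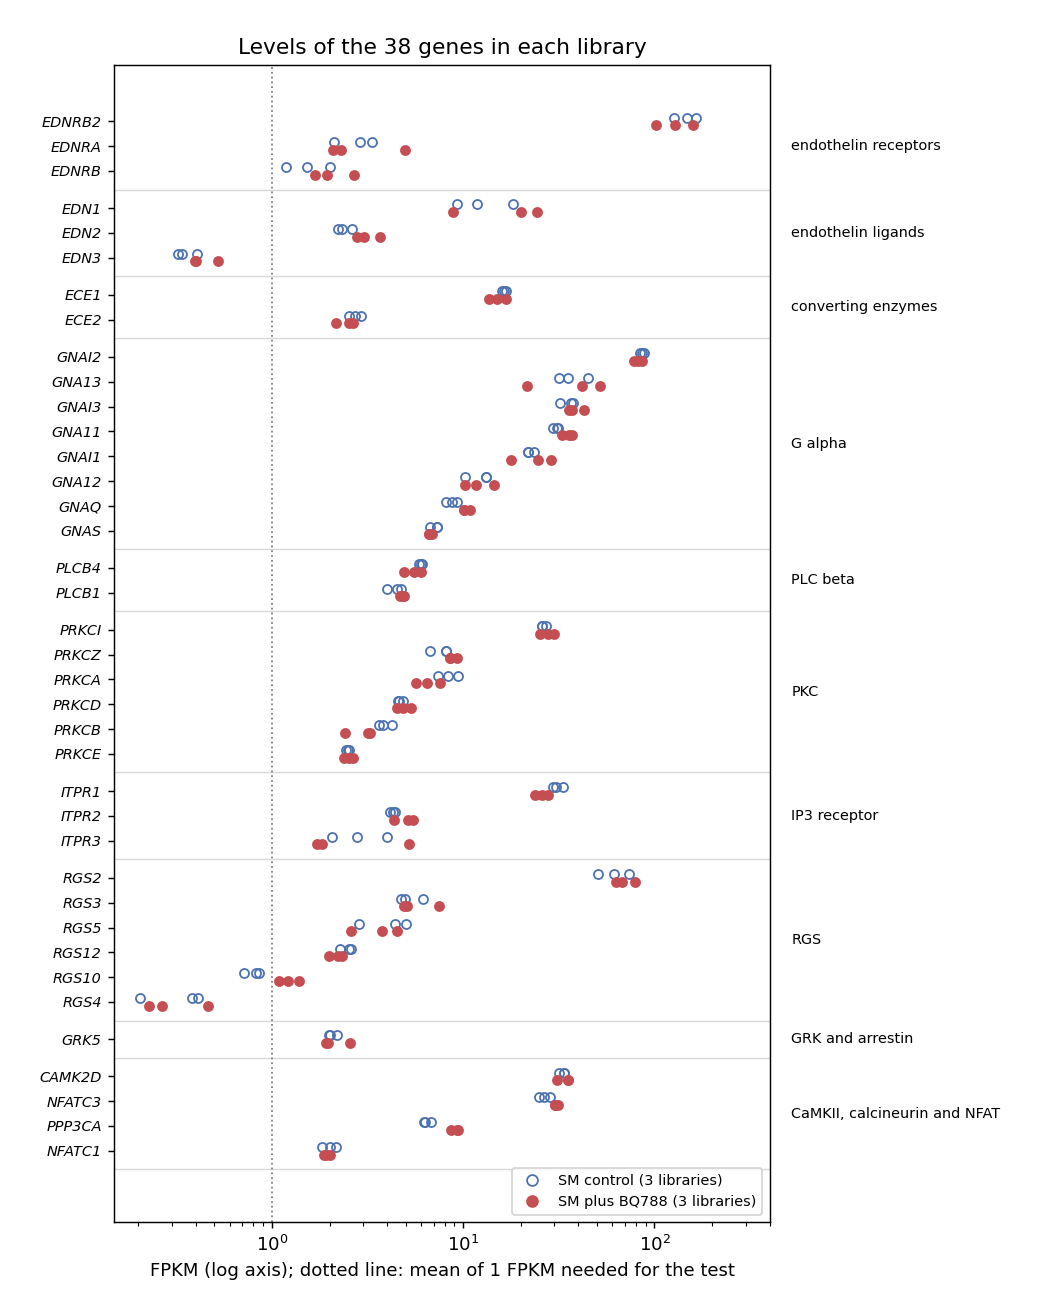
FPKM of each of the 38 genes on a log axis, grouped by role and ordered by mean level within a group, with 3 SM control libraries as open circles and 3 SM plus BQ788 libraries as filled circles. EDNRB2 lies to the right of every other gene in 6 of 6 libraries, and only EDN3, RGS4 and, in the controls, RGS10 lie left of 1 FPKM.

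The receptor genes of the papilla were led by EDNRB2, which was the highest of all 38 genes by mean level. Its levels were 147.6, 164.1 and 127.2 FPKM in SM control libraries and 159.9, 127.7 and 101.3 with BQ788, so it ranked 356th of 25619 genes. EDNRA, the type A receptor gene, was at 3.35, 2.87 and 2.10 FPKM in the controls and 4.93, 2.09 and 2.30 with BQ788. EDNRB, the type B receptor gene shared with mammals, was at 2.01, 1.52 and 1.19 FPKM in the controls and 1.93, 1.68 and 2.67 with BQ788. EDNRB2 thus made up 95.3% to 97.5% of the summed level of the receptor genes. It exceeded EDNRB by 37.9 to 107.9 times within a library, and EDNRA by 32.4 to 61.1 times, in 6 of 6 libraries. EDNRA lay above EDNRB in 5 of 6 libraries. EDNRB2 lies on chromosome 4 from 11117090 to 11128197 (GRCg7b, coordinates of the deposited table), EDNRA on the same chromosome from 31479098 to 31508613 and EDNRB on chromosome 1 from 153874464 to 153888787.

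EDNRB2 is a gene of melanoblasts, and pigment cells can lie beside the papilla. The genes for the pigment enzymes TYR, TYRP1 and DCT, which define melanocytes, stayed at or below 0.256 FPKM in every library, with TYR at 0 in 1 library and TYRP1 at 0 in 2. The 10 melanocyte markers summed to 138.7 to 147.8 FPKM in the controls and 105.1 to 137.6 with BQ788, mainly through SOX10 at 92.8 to 124.8 FPKM, which cells of the inner ear epithelium also express. Of the other pigment genes, SLC45A2, OCA2 and MLANA were present and lower in each BQ788 library than in any control. MITF went the other way without overlap and did not pass (0.11, limma adjusted p = 0.517). KIT (0.19) and PMEL (-0.07) overlapped between groups and did not pass either. SLC45A2, a melanosomal transporter gene, was at 7.70, 8.59 and 8.08 FPKM in the controls and 2.35, 2.79 and 1.89 with BQ788, and passed the test that follows (limma adjusted p = 0.0138). OCA2, also of the melanosome, was at 5.88, 7.24 and 7.82 FPKM against 3.01, 5.83 and 4.37 (limma adjusted p = 0.155), and MLANA at 3.44, 2.16 and 2.88 FPKM against 1.15, 1.203 and 0.328 (limma adjusted p = 0.0673). The part of pigment cells in the EDNRB2 level was not tested.

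With BQ788 0 of the 3 receptor genes passed the test, before or after adjustment or in limma voom, where 2.99% of all genes tested passed. That test was limma on log2(FPKM + 1) over the 11857 genes whose mean reached 1 FPKM, with Benjamini-Hochberg adjusted p-values called at 0.05. All fold changes here are log2 differences on this scale, SM plus BQ788 minus SM control, which understates changes of low genes. The groups overlapped for each of the receptor genes (they did not for 29.3% of all genes), and the lowest EDNRB2 and the highest EDNRB level both came from BQ788 replicate 3. The differences were -0.19 for EDNRB2 (95% interval -0.61 to 0.23), 0.26 for EDNRB (-0.13 to 0.66) and 0.07 for EDNRA (-0.57 to 0.71). Within these libraries a 2-fold change of EDNRB2 therefore lay outside the interval. In bulk samples fewer cells of a type and less RNA per cell cannot be told apart.

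Among the ligand genes EDN1 was highest and most uneven, and EDN3, the ligand best known from neural crest cells, was lowest. EDN1 was at 9.34, 11.7 and 18.2 FPKM in the controls and 8.86, 20.1 and 24.3 with BQ788. EDN2 was at 2.33, 2.63 and 2.21 FPKM in the controls and 3.01, 3.66 and 2.78 with BQ788. EDN3 was at 0.323, 0.408 and 0.339 FPKM in the controls and 0.399, 0.398 and 0.521 with BQ788. Only 16 to 24 reads per library lay behind EDN3, so counting alone gives an error of 25.0% at the lowest, and it was not tested. EDN1 exceeded EDN2 in 6 of 6 libraries by 2.94 to 8.72 times, and EDN2 exceeded EDN3 by 5.34 to 9.20 times in 6 of 6. EDN1 spread over 2.74-fold among libraries, and its highest and lowest values both lay in the BQ788 group. The difference of EDN1 was 0.35, with an interval of -0.57 to 1.28 that holds a 2-fold rise. EDN2 was higher in each BQ788 library than in any control, by 0.29 (SE 0.11, limma adjusted p = 0.180, exact permutation p = 0.1, the smallest for 3 against 3), and did not pass. EDN1 lies on chromosome 2 from 62406640 to 62411539, EDN2 on chromosome 23 from 1326512 to 1331847 and EDN3 on chromosome 20 from 11141887 to 11158648. The 8 endothelial markers, of cells that secrete endothelin 1 in blood vessels, summed to 35.9 to 39.2 FPKM in the controls and 27.4 to 35.96 with BQ788 and were lowest in BQ788 replicate 3, where EDN1 was highest. EGFL7 and PECAM1 carried most of that sum and were lower in each BQ788 library than in any control, without passing. EGFL7 was lowest in BQ788 replicate 3 (16.3 FPKM), but PECAM1 was lowest in BQ788 replicate 2 (6.55 FPKM). CLDN5 overlapped between groups (0.30, limma adjusted p = 0.545), as did KDR, and both were highest in BQ788 replicate 1. CDH5 and VWF went the other way without overlap, and with TEK and TIE1 they were at or below 0.568 FPKM throughout. The part of endothelial cells in the EDN1 level was not tested.

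Both converting enzyme genes varied little. ECE1 was at 16.8, 16.3 and 16.0 FPKM in the controls and 16.7, 13.7 and 15.0 with BQ788. ECE2 was at 2.91, 2.71 and 2.53 FPKM in the controls and 2.16, 2.64 and 2.52 with BQ788. ECE1 exceeded ECE2 in 6 of 6 libraries by 5.19 to 7.72 times, and the groups overlapped for both. Their differences were -0.11 each, with intervals from -0.30 to 0.08 for ECE1 and from -0.33 to 0.11 for ECE2. A row described as ECE2-like lies near ECE2 on chromosome 9 without overlapping its gene model, whereas the model of MUL1L does overlap it. How reads were split among these rows is uncertain and was not tested. Of 6 related peptidase genes on the wider list, among them PHEX, KEL, MME and ECEL1, only MMEL1 reached the test, at 16.5 ± 7.02 and 24.1 ± 11.8 FPKM (mean ± SD over 3 libraries per group, as in all values with ±; limma adjusted p = 0.579).

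Of the G alpha genes, the inhibitory subunit GNAI2 was highest and the stimulatory GNAS lowest. GNAI2 was at 83.8, 88.4 and 85.7 FPKM in the controls and 81.8, 78.6 and 85.9 with BQ788. GNA13, another G alpha subunit gene, followed at 35.3, 31.7 and 45.0 FPKM in the controls and 21.5, 41.7 and 51.9 with BQ788. GNAI2 lay above GNA13 in 6 of 6 libraries by 1.66 to 3.81 times. GNA13, GNAI3 and GNA11 followed at means of 37.8, 37.0 and 32.9 FPKM and could not be ranked, since GNA13 lay above GNAI3 in 3 libraries and GNAI3 above GNA11 in 5. GNAI1 (23.0 FPKM), GNA12 (12.1), GNAQ (9.52) and GNAS (6.91) then followed in the same order in 6 of 6 libraries. The GNAS row spans a gene model of 24307 bases, the longest of the members, and its low FPKM rests on 2505 to 3145 reads per library. GNAI2, with a model of 1936 bases, held 2578 to 2878 reads, so the order of these genes by FPKM depends on the model lengths of the deposited table.

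Both Gq subunit genes were higher in every BQ788 library than in any control, as were 15.2% of all genes tested. Neither passed over all genes. GNA11 was at 31.3, 31.1 and 29.6 FPKM in the controls and 32.9, 35.6 and 36.9 with BQ788, a difference of 0.19 (SE 0.06, limma adjusted p = 0.149). GNAQ was at 9.24, 8.76 and 8.14 FPKM in the controls and 10.04, 10.8 and 10.1 with BQ788, a difference of 0.22 (SE 0.07, limma adjusted p = 0.134). GNA11 was 3.28 to 3.64 times as high as GNAQ per kilobase in the libraries. The other G alpha genes overlapped between groups, with differences from -0.07 for GNAS to 0.12 for GNAI3. GNA11 lies on chromosome 28 from 1673548 to 1689516 and GNAQ on chromosome Z from 38402502 to 38521003. The share of reads on chromosome Z was 3.98% to 4.09% in the controls and 3.98% to 4.21% with BQ788. Reads on chromosome W, which only female birds carry, were 0.0105% to 0.0124% and 0.00908% to 0.0104% of the total. The median difference of 567 tested Z genes was 0.04, against 0.02 for all genes.

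Both phospholipase C beta genes with a row were expressed at similar and low levels. PLCB4 was at 5.98, 5.89 and 6.06 FPKM in the controls and 4.89, 5.55 and 5.99 with BQ788. PLCB1 was at 4.71, 4.52 and 3.99 FPKM in the controls and 4.66, 4.84 and 4.93 with BQ788. PLCB4 was the higher of the pair in 6 of 6 libraries, by 1.05 to 1.52 times. The groups overlapped for both, and the differences were -0.11 and 0.11. These genes lie 23.2 kb apart on the same strand of chromosome 3. No other gene model lies wholly between them, but the model of LOC107052866, on the opposite strand, overlaps both.

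Of the IP3 receptor genes ITPR1 was by far the highest, at 29.4, 30.4 and 33.3 FPKM in the controls and 23.7, 25.8 and 27.9 with BQ788. It was lower in every BQ788 library than in any control, by 0.26 (difference -0.26, SE 0.08, limma adjusted p = 0.129), and did not pass. ITPR2 was at 4.27 ± 0.127 FPKM in the controls and 4.99 ± 0.593 with BQ788, and the groups overlapped. ITPR3 was at 3.99, 2.78 and 2.07 FPKM in the controls and 5.20, 1.73 and 1.83 with BQ788, the widest spread of the 36 tested genes. ITPR1 exceeded ITPR2 by 4.70 to 7.60 times in 6 of 6 libraries, while ITPR2 lay above ITPR3 in 5 of 6.

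The protein kinase C genes were led by an isoform that needs neither calcium nor diacylglycerol. PRKCI, the atypical iota isoform known from apical polarity complexes, was at 25.7, 25.8 and 27.3 FPKM in the controls and 25.2, 27.7 and 29.8 with BQ788. It exceeded the next gene, the atypical PRKCZ, in 6 of 6 libraries by 2.96 to 4.07 times. PRKCZ was at 8.13, 8.10 and 6.70 FPKM in the controls and 8.48, 9.26 and 8.55 with BQ788. PRKCZ and PRKCA, the classical alpha isoform, could not be ranked, since PRKCA was the higher in the 3 controls and PRKCZ with BQ788. PRKCD (4.78 FPKM), PRKCB (3.42) and PRKCE (2.504) came below them.

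The classical isoforms, which respond to calcium and diacylglycerol, had the lowest differences of the kinase group. PRKCB was at 3.82, 4.27 and 3.61 FPKM in the controls and 3.24, 3.17 and 2.40 with BQ788, a difference of -0.32 (SE 0.11, limma adjusted p = 0.164). PRKCA was at 9.41, 8.33 and 7.37 FPKM in the controls and 7.58, 6.46 and 5.68 with BQ788, a difference of -0.31 (SE 0.12, limma adjusted p = 0.202). PRKCB did not overlap between groups, PRKCA overlapped in 1 pair of libraries, and neither passed. PRKCZ went the other way without overlap (0.18, SE 0.09, limma adjusted p = 0.288), and PRKCI, PRKCD and PRKCE overlapped, with differences of 0.01 to 0.07.

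RGS2, whose product acts chiefly on Gq, was the highest of the RGS genes and the third highest member. Its levels were 61.3, 73.5 and 50.7 FPKM in the controls and 67.8, 79.3 and 62.9 with BQ788, which overlapped (0.19, interval -0.17 to 0.54). It exceeded RGS3 by 8.28 to 15.6 times in 6 of 6 libraries. RGS3 and RGS5, at means of 5.54 and 3.85 FPKM, could not be ranked, and RGS12 (2.32 FPKM), RGS10 (1.015) and RGS4 (0.326) followed. RGS10 was at 0.860, 0.828 and 0.712 FPKM in the controls and 1.39, 1.08 and 1.22 with BQ788, without overlap (0.31, SE 0.10, limma adjusted p = 0.139). It rested on 40 to 87 reads per library and passed the filter on low values only through its BQ788 libraries. RGS5, a gene of pericytes, was at 4.99, 4.42 and 2.85 FPKM in the controls and 4.48, 3.78 and 2.59 with BQ788. The 5 pericyte and smooth muscle markers with a row summed to 19.7 to 21.5 FPKM in the controls and 13.4 to 18.7 with BQ788. MYH11, ACTA2 and DES were lower in each BQ788 library than in any control. MYH11 (-0.61, limma adjusted p = 0.217) and ACTA2 (-1.05, limma adjusted p = 0.0539) did not pass. DES, at or below 0.598 FPKM, was not tested. PDGFRB, a pericyte gene, overlapped at 5.48, 3.56 and 2.92 FPKM in the controls and 6.85, 2.96 and 4.53 with BQ788 (0.19), as did TAGLN (0.02). The part of pericytes and smooth muscle cells in the RGS5 level was not tested.

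RGS2, RGS4 and RGS5 lie within 1 stretch of chromosome 8. The RGS4 model, from 3565963 to 3692075 on the plus strand, contains the whole of RGS2, from 3575300 to 3578095 on the minus strand, and ends 682 bases before RGS5, from 3692757 to 3699845. The sources used here do not say whether counting used strand, so the 47 to 119 reads assigned to RGS4 cannot be told apart from reads of the genes it overlaps. GRK5 and RGS10 are neighbours as well, 17.6 kb apart on opposite strands of chromosome 6. RGS10 had separate groups, while GRK5, a receptor kinase gene, was at 2.19, 2.01 and 1.98 FPKM in the controls and 2.57, 1.92 and 1.96 with BQ788. A row described as beta-arrestin-1 under another symbol, LOC107051449, was looked up after its values were seen. It was at 27.7 ± 3.00 and 23.2 ± 0.986 FPKM, lower in each BQ788 library than in any control. It did not pass (-0.24, limma adjusted p = 0.172, 0.0303 before adjustment).

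The calcium effectors held the only member that passed the test. PPP3CA, the catalytic alpha subunit of calcineurin (chromosome 4, 59813643 to 60009655), was at 6.82, 6.20 and 6.28 FPKM in the controls and 8.62, 9.34 and 9.24 with BQ788. Its groups were far apart against their spread, and it rose by 0.44 (SE 0.07, 95% interval 0.27 to 0.60, limma adjusted p = 0.0361), a ratio of means of 1.41. NFATC3, the higher of the NFAT genes among the members, was at 28.3, 25.0 and 26.5 FPKM in the controls and 31.4, 30.2 and 30.3 with BQ788. It was higher in each BQ788 library but short of the threshold (0.20, SE 0.06, limma adjusted p = 0.138). NFATC1 was 11.5 to 16.3 times lower than NFATC3 and overlapped between groups (-0.04). CAMK2D, the delta chain of CaMKII, had the highest mean of this set but lay above NFATC3 in only 5 of 6 libraries. Its levels were 31.8, 33.5 and 33.5 FPKM in the controls and 31.0, 35.3 and 35.4 with BQ788, and the groups overlapped (0.04). The call of PPP3CA was kept without BQ788 replicate 1 (adjusted p = 0.0252). It was lost when any 1 of the other 5 libraries was left out (adjusted p from 0.0986 to 0.158), without a filter on low values (0.0614) and under scaling by total reads (0.0539). Its difference stayed at 0.42 to 0.48 on leaving out a library, and the calls over all genes fell from 355 to between 1 and 21 in those 5 settings.

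**Figure D2:**
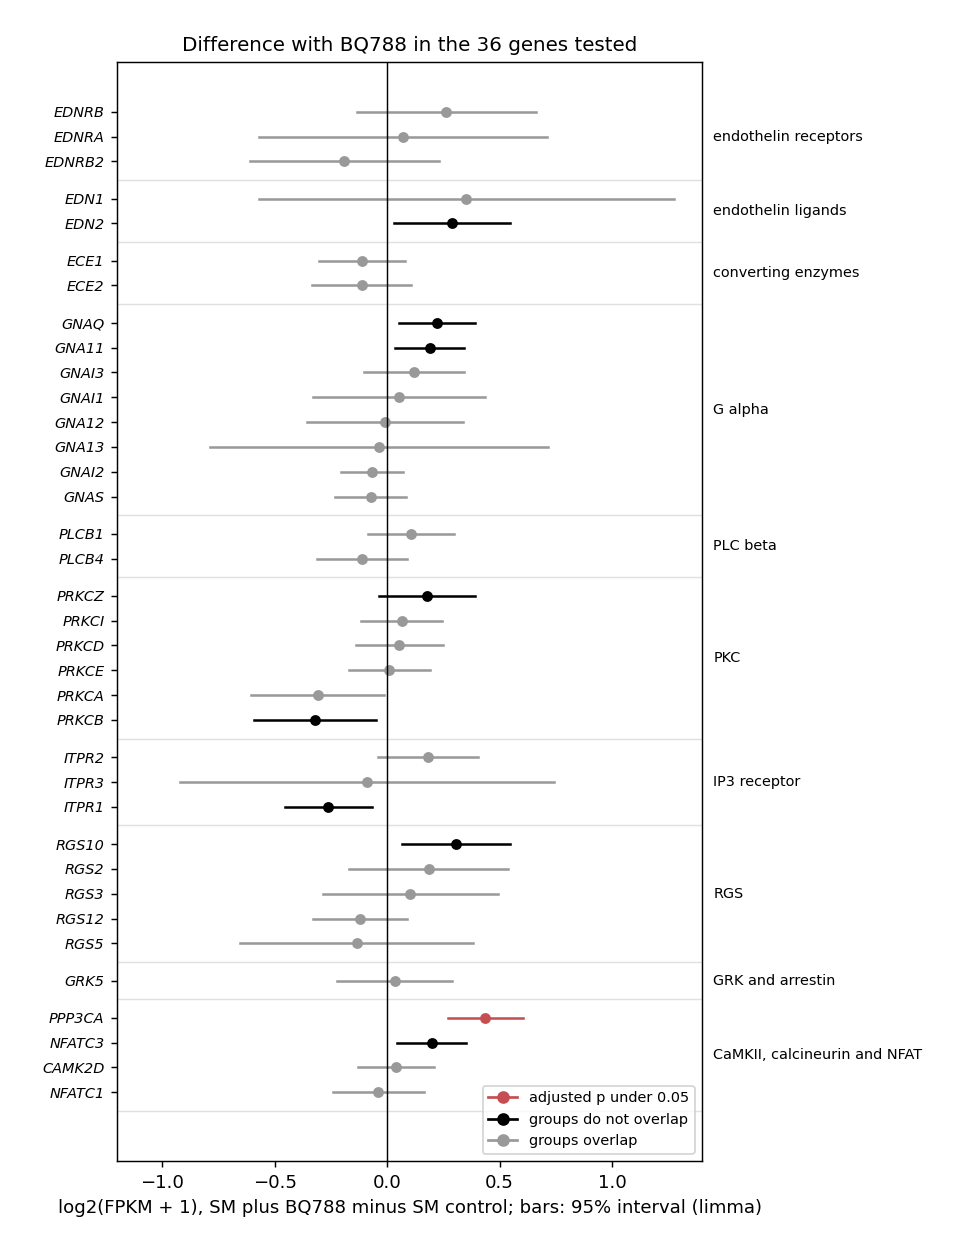
Difference of log2(FPKM + 1), SM plus BQ788 minus SM control, for the 36 tested genes, with 95% intervals from limma; the red gene passed an adjusted p of 0.05 and black genes had groups that did not overlap. PPP3CA, at 0.44, is the only red gene, and the intervals of EDN1, ITPR3 and GNA13 are the widest.

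Set against all genes, the members moved about as often as any. Of the 36 tested members 1 passed (2.78%), against 2.99% of all genes tested. The groups did not overlap for 9 members (25.0%), against 29.3% of all genes. They were higher with BQ788 for 7 and lower for 2, where all genes gave 15.2% and 14.1%. RGS10 is among the 7 and reached the mean of 1 FPKM only through its BQ788 libraries; without it 8 of 35 did not overlap (22.9%), 6 higher and 2 lower. At an unadjusted p of 0.05 limma gave 9 members, or 8 without RGS10, against 22.7% of all genes. The median difference was 0.05 over the members and 0.02 over all genes, with 21 of 36 members and 53.5% of all genes above 0. No member reached 2-fold, and 27 of the 36 differed by less than 0.2.

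**Figure D3:**
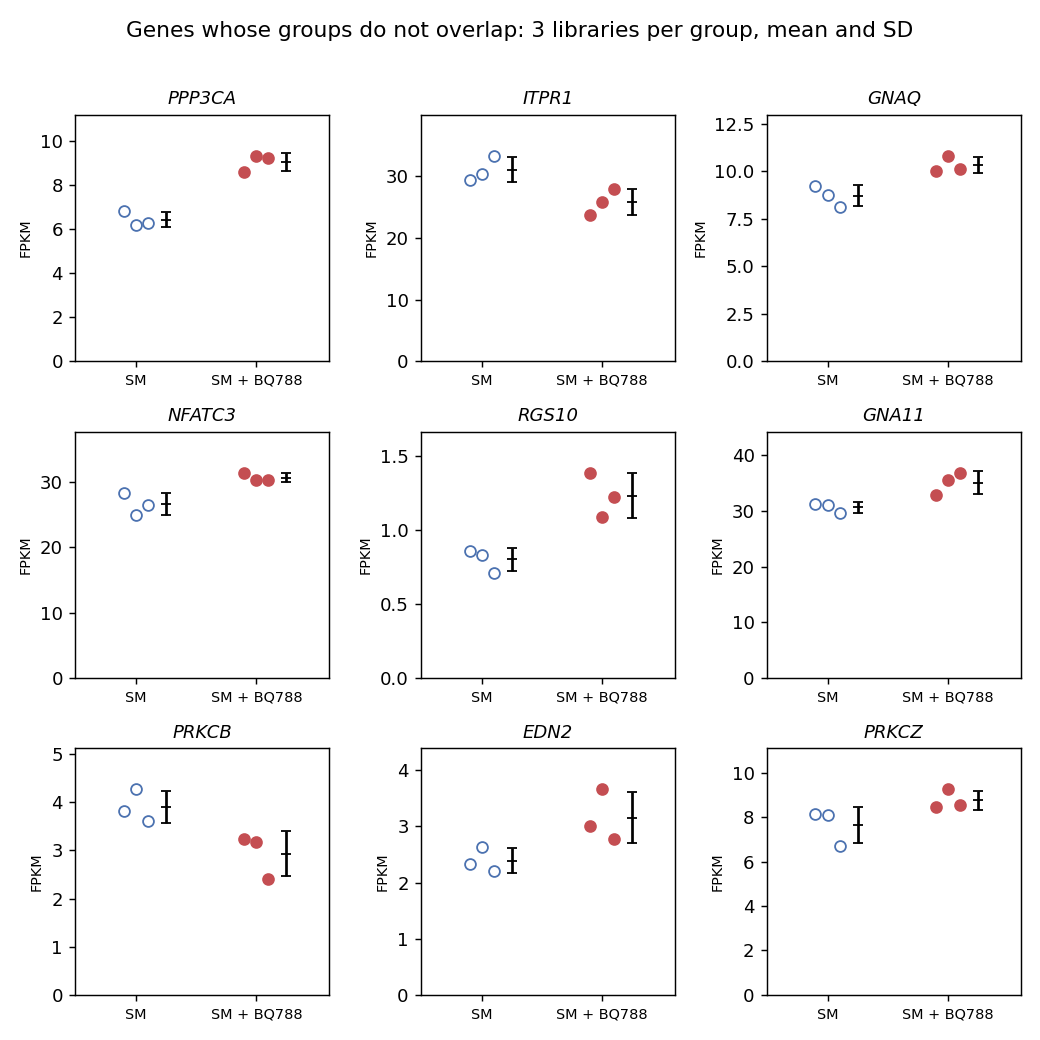
FPKM in each library for the 9 genes whose groups did not overlap, ordered by limma p, with 3 libraries per group as points and mean and SD as bars; each vertical axis starts at 0. ITPR1 and PRKCB were lower and the other 7 higher with BQ788, and the gap in PPP3CA, from 6.82 to 8.62 FPKM, is wide against the spread within each group.

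A few members differed widely among the 6 libraries. The lowest and highest library differed at least 2-fold in 5 of the 36 tested members (13.9%, against 14.2% of all genes tested), namely ITPR3, EDN1, EDNRA, GNA13 and EDNRB. EDNRA and ITPR3 were highest in BQ788 replicate 1 and, within the controls, in replicate 1. EDN1 and GNA13 were lowest in BQ788 replicate 1 and, in both groups, highest in replicate 3. The 6 fibroblast markers summed to 237.7, 206.8 and 176.6 FPKM in the controls and 297.2, 112.3 and 151.1 with BQ788. This sum was highest in the libraries where EDNRA, a receptor gene of fibroblasts and smooth muscle, was highest. COL3A1, one of these markers, was highest in replicate 1 within each group. Its 8.87 FPKM in BQ788 replicate 1 nevertheless lay below every control (11.4 to 14.1 FPKM). The pericyte and smooth muscle markers were mixed in BQ788 replicate 1. MYH11 (2.82 FPKM) and ACTA2 (0.397 FPKM) were at their lowest there, and TAGLN (7.07 FPKM) and PDGFRB (6.85 FPKM) at their highest. DES was lowest in BQ788 replicate 2 (0.293 FPKM). The 8 supporting cell markers summed to 3687, 3760 and 4669 FPKM in the controls and 2874, 3480 and 4063 with BQ788, in the order of EDN1 within each group. TECTB and GJB6 made up most of that sum, and none of the other markers kept this order in both groups. SOX2 was at 44.4, 44.6 and 37.6 FPKM in the controls and 61.0, 35.5 and 29.3 with BQ788, lowest where EDN1 was highest. The part of any of these cell types in the levels of the 5 members was not tested. Without BQ788 replicate 1 the difference of EDNRA was -0.23 in place of 0.07 and that of GNA13 0.32 in place of -0.04, and neither passed.

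**Figure D4:**
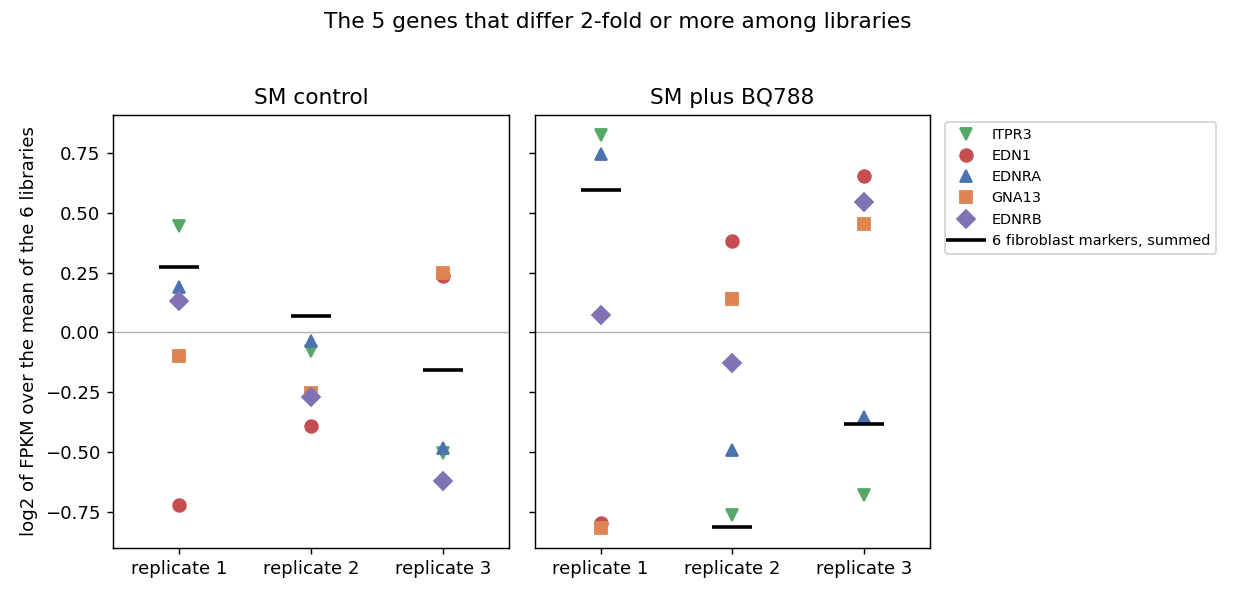
Level of the 5 genes that differed at least 2-fold among libraries, as log2 of FPKM over the mean of the 6 libraries, with the summed level of 6 fibroblast markers as black bars. In BQ788 replicate 1, ITPR3, EDNRA and the fibroblast sum lie above 0 while EDN1 and GNA13 lie below it.

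Of 28 pairs of neighbours in the order of levels within a set of members, 20 kept the same order in 6 of 6 libraries and 8 did not. The order was set by the mean of the same libraries, so these counts are a description with no test. The members ran from 0.326 FPKM for RGS4 to 138.0 FPKM for EDNRB2, and 14 of the 38 reached 10 FPKM. Their median was 6.32 FPKM, with the untested EDN3 and RGS4 included. The median over all genes tested, each with a mean of at least 1 FPKM, was 9.38 FPKM, so the sets differ in their filter. The genes with the highest mean at each step were EDNRB2, EDN1, ECE1, GNAI2, PLCB4, PRKCI, ITPR1, RGS2 and CAMK2D. Of these, CAMK2D lay above the next gene in 5 of 6 libraries.

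Other genes of the pathway, taken from 12 lists of relatives of the members, gave a similar share of calls. Of 91 tested genes 3 passed (3.30%, against 2.99% of all genes), and all 3 fell. Over all genes tested 2.24% passed as lower with BQ788 and 0.751% as higher. GNG13, a G gamma subunit gene known from taste cells and retina, was at 5.83, 7.78 and 9.73 FPKM in the controls and 2.88, 3.28 and 3.13 with BQ788, the largest change of the 3 (-1.08, SE 0.16, limma adjusted p = 0.0332). ADCY7, an adenylyl cyclase gene, fell from 7.44 ± 0.126 to 5.58 ± 0.189 FPKM (limma adjusted p = 0.0415). The calls of GNG13 and ADCY7 were each lost on leaving out any 1 library except BQ788 replicate 1. The lists of other G alpha, phospholipase C, protein kinase C and D, diacylglycerol kinase, calcium channel, RGS, GRK, calmodulin kinase and peptidase genes held 59 tested members, of which 0 passed with either limma or limma voom and 10 had a limma p under 0.05 before adjustment, where 22.7% of all genes tested did. Beside MMEL1, their smallest p belonged to GNAL, PLCD4, PKN3, DGKQ, IRAG1, RGS14, GRK2 and CAMK1, with limma adjusted p from 0.0514 for DGKQ to 0.493 for GNAL.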

How the data were processed

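The authors deposited FPKM values by gene, in 1 table with coordinates and gene model lengths. The submitters' processing notes name fastp and build GRCg7b; the sources used here do not give aligner, counter or strandedness. FPKM times the deposited gene length, an other value in bases given per the file headers, came out as whole multiples of a step fixed by library for 100% of genes (tolerance 0.01 of a read), so reads were recovered. Median-of-ratios factors were 1 in all 6 libraries, and library sizes behind the FPKM values were 0.948 to 1.06 times the recovered reads. A floor of 3 reads is 0.169 to 0.193 FPKM in a gene of 1 kb; counting errors cover counting only.

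Groups and replicate numbers came from the titles. The test was limma 3.58.1 (R 4.3.3) on log2(FPKM + 1) with group as the only term, eBayes with trend, two-sided, over genes whose mean reached 1 FPKM; it was tested on simulated data. Single genes of the axis also had an exact permutation test, whose smallest p is 0.1 for 3 against 3 libraries. The sign-flip test planned for orders of levels is not used, since the same libraries set the order. Libraries of a group differed beyond counting noise (chi-square per degree of freedom 7.28 to 71.3). The members and lists were chosen with earlier results of these data known. Values in every library were given for the endothelin genes, members past the threshold or without overlap and the highest member of each group; further members were chosen after their values were seen. Alternatives were another pseudocount and filters, other scalings, the replicate number as a block, limma voom on recovered reads and leaving out each library. The GRCg7b annotation table supplied chromosome names for 25616 identifiers, and 3 had none. No sequence was printed. One gene of the pathway lists that passed the test is not reported here.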

Additional observations from a re-analysis of the deposited data

How the results depend on the processing

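Of all genes tested 355 passed; 344 passed with a pseudocount of 0.1, 300 with a minimum mean of 5 FPKM and 240 in limma voom on recovered reads, against 68 without a filter and 220 under scaling by total recovered reads, where a larger family of genes or another library size was used. Leaving out 1 library gave 1 to 1311 genes, 1311 of them without BQ788 replicate 1. The member count was 1 as reported, 0 without a filter and 0 under scaling by total recovered reads, and 0 to 1 on leaving out 1 library. Of the other pathway genes 3 passed, 0 without a filter and 0 to 9 on leaving out 1 library. Members without overlap numbered 9, and 10 to 19 on leaving out 1 library. The 19 came without BQ788 replicate 1, where 50.4% of all genes did not overlap, and 15 came without SM control replicate 3 (39.4%); fewer libraries overlap less by construction.

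The replicate number as a block gave 749 genes, with PPP3CA still the only member called. Same-numbered libraries deviated from their group means with correlations of 0.50, 0.07 and 0.57 over genes, and differently numbered ones with -0.53 to 0.13. SM control replicate 2 went slightly better with BQ788 replicate 1 (0.12) than with BQ788 replicate 2 (0.07). The sources used here do not say whether the numbers pair the libraries, so the main test did not use them. These correlations do not settle it.

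All fold changes of members kept their sign under every alternative but leaving out a library. On leaving out 1 library EDNRA ran from -0.23 to 0.24, GNA12 from -0.13 to 0.10, GNA13 from -0.29 to 0.32, GNAI1 from -0.093 to 0.23, PRKCE from -0.015 to 0.037, ITPR3 from -0.48 to 0.12, RGS3 from -0.063 to 0.20, RGS5 from -0.32 to 0.035, GRK5 from -0.058 to 0.086 and NFATC1 from -0.079 to 0.00023. Median-of-ratios scaling changed nothing, its factors being 1. The planned quasi-likelihood count test was not run because the deposited unit is FPKM; limma voom and scaling by total reads were chosen after seeing the data. Depth limits EDN3, RGS4, RGS10 and EDNRB most, at 16, 47, 40 and 42 reads in the lowest library.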

Other observations

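The stretch of chromosome 8 with RGS2, RGS4 and RGS5 holds 4 more RGS genes of the table. RGS1, known from lymphocytes, was at 2.68, 1.78 and 1.27 FPKM in the controls and 6.23, 1.88 and 1.00 FPKM with BQ788, highest in BQ788 replicate 1. RGS18, known from blood platelets, was at 0.410 to 1.08 FPKM and also highest there. RGS13 was at or below 0.111 FPKM and RGS21 at or below 0.0289 FPKM, each above 0 in 1 library. The 6 blood and immune markers summed to 54.3 to 75.6 FPKM in the controls and 45.7 to 78.4 FPKM with BQ788, lowest in BQ788 replicate 1. CD74 and CD3E, which made up most of that sum, were lowest there at 23.4 and 16.2 FPKM, whereas CSF1R, a macrophage receptor gene, was highest there at 5.06 FPKM. PTPRC, a pan-leukocyte gene, stayed at 0.578 to 0.914 FPKM, and HBAD was at 0 in every library. The part of blood cells in the levels of RGS1 and RGS18 was not tested.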
